A study of Mus musculus with 8 samples.

Results

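In fasted mouse liver, 16372 regions inside the bodies of protein-coding genes carried the histone mark H3K27-me3 in the list from mice with downregulation of JMJD3 and had no overlapping region in the list from control mice. They were chosen by the peak calls themselves. Each was a region of the AAV-Cre list on chromosomes 1 to 19 that overlapped no region of the AAV-GFP list, touched the body of a protein-coding gene and lay more than 1 kb from every start site of a protein-coding transcript. They made up 27.8% of the 58951 autosomal regions of that list, which held 59267 regions in all. The AAV-GFP list held 34586 regions. The number depended on the calls, and it was 7720 when the same number of top peaks was taken from each list and 8957 after peaks within 1 kb were merged.

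H3K27-me3 ChIP-seq had been performed on livers of male C57BL/6 mice with floxed alleles of JMJD3 (Kdm6b). At 8 weeks of age they received either AAV-TBG-Cre, whose TBG promoter restricts Cre to hepatocytes, or AAV-GFP as the control, and 12 weeks later all of them were fasted for 16 h before the livers were taken. Both groups therefore carried the floxed alleles and were fasted, and the other cell types of the liver kept JMJD3 in both. Each group had 2 H3K27-me3 libraries and 2 input libraries, and the authors combined the libraries of a group into 1 list of peaks, so the lists analysed here hold no value per mouse and no difference between the groups was tested.

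Trimethylation of lysine 27 on histone H3 is placed by Polycomb repressive complex 2, usually over the start sites and bodies of genes that a cell keeps silent, where it can spread into broad domains. JMJD3 and its relative UTX remove it. A gene body consists of exons, which hold the coding and untranslated sequence of the mRNA, and of introns, which fill most of its length and are spliced out. Over active genes the body carries other marks, among them methylation of lysine 36, which hinders Polycomb repressive complex 2.

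Sequences of the strongest regions are shown as examples, and they need not be typical of the whole set. The lines below hold the 200 bases around the summit, the base of highest signal, of the 3 strongest regions with a summit in coding sequence and of the 3 strongest with a summit in an intron, read from the plus strand of GRCm38 (mm10), with CpG dinucleotides in capitals. Windows over untranslated sequence were passed over.
Relb coding exon chr7:19619613-19619812: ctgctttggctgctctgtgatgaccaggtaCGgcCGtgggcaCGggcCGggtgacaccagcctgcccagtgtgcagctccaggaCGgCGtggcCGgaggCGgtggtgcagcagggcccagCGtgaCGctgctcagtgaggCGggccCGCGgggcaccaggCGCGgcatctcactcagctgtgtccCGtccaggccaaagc
D630003M21Rik coding exon chr2:158210090-158210289: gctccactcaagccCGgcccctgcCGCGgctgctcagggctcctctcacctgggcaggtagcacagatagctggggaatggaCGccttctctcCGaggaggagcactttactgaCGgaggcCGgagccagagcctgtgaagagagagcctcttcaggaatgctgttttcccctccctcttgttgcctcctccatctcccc
Jsrp1 coding exon chr10:80810092-80810291: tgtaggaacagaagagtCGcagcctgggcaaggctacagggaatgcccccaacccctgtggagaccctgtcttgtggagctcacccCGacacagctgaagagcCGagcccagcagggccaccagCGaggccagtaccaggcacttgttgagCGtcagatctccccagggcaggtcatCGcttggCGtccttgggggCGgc
Slc36a2 intron chr11:55163821-55164020: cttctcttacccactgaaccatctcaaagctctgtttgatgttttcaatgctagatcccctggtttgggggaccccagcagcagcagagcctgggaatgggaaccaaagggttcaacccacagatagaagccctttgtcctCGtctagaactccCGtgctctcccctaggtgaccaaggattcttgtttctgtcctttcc
Dnaaf1 intron chr8:119585954-119586153: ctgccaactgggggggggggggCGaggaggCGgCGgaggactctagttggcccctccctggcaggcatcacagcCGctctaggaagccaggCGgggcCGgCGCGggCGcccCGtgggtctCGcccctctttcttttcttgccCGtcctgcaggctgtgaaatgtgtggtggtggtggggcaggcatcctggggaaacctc
Nfatc2 intron chr2:168525661-168525860: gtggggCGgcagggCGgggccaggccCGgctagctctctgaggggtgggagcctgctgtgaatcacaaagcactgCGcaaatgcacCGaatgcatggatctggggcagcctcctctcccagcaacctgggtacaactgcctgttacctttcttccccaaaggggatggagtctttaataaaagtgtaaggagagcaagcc
The Relb window lay wholly within exons and held 16 CpGs at a GC content of 71.0%. The windows of D630003M21Rik and Jsrp1 crossed an exon edge, with 84 and 116 exonic bases, and held 7 and 8 CpGs. The intronic windows held no exonic base, and their CpGs ranged from 2 in Slc36a2 to 12 in Dnaaf1. Over all AAV-Cre-only gene-body regions, the medians were 1.34 CpGs per 100 bases and a GC content of 50.8%.

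The Relb region (chr7:19619335-19620439) lay 8999 bp from the nearest start site in the gene of an NF-kappaB subunit. It was 6.91-fold enriched over the input background, and 329 of its 1105 bp were coding. The other regions with a summit in an exon that ranked highest by p-value lay in Dlgap1, a scaffold protein of synapses (chr17:70816988-70818926, 6.69-fold), D630003M21Rik (chr2:158209476-158212008, 6.74-fold), Jsrp1, a protein of the sarcoplasmic reticulum of muscle (chr10:80809876-80810724, 6.52-fold), and Atp4a, the proton pump of the stomach (chr7:30715116-30718057, 6.17-fold). The Atp4a region covered 1159 coding bases over 2942 bp and stood 50651 bp from the nearest AAV-GFP region. The Jsrp1 region stood only 429 bp from one.

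Among regions with an intronic summit, the strongest lay in Slc36a2, an amino acid transporter (chr11:55160532-55167957). It was 7.83-fold enriched, the highest fold of the 16372 regions, and 337 of its 7426 bp were coding although the summit was not. The Dnaaf1 region (chr8:119585615-119586484, 7.0-fold), in a gene needed to assemble the dynein arms of cilia, and the Nfatc2 region (chr2:168524277-168527864, 6.95-fold), in a transcription factor gene of T cells, touched no exon. Zfp608, a zinc finger gene, held a 6.53-fold region 340145 bp from any AAV-GFP region. Fer1l4, of the ferlin family, held a 6.78-fold region with 919 coding bases. The widest region of all, 8339 bp, lay in an intron of Ago2, the slicer of RNA interference (chr15:73162081-73170419, 4.99-fold), and 6891 bp of Muc5ac, a secreted mucin, were covered by another (chr7:141814409-141821299, 3.51-fold).

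These were exceptions, since most of the regions were short and weak. Their median width was 641 bp, with quartiles of 454 and 971 bp, and their median fold enrichment was 2.73, with quartiles of 2.47 and 3.12. By the authors' q-values, 13878 of them (84.8%) passed 0.05. The 3834 AAV-Cre regions in gene bodies that did overlap an AAV-GFP region had a median width of 1638 bp and a median fold of 3.95, and 97.5% passed. Because the rule asks for the absence of a call in the other list, this contrast was built into the selection. When the AAV-Cre list was cut into 10 classes by p-value, 9.33% of the gene-body regions had no AAV-GFP counterpart in the strongest class and 96.3% in the weakest.

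The shortest region was 300 bp in the AAV-Cre list and 120 bp in the AAV-GFP list, and the median widths were 753 and 231 bp. Absence from the AAV-GFP list and a signal there below that list's peak call cannot be told apart.

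At the edge of the rule, 403 regions lay at most 500 bp beyond the 1 kb limit around start sites, with a median width of 658 bp and a median fold of 2.77. The 383 regions left out that lay at most 500 bp inside it had 660 bp and 2.77. At the other edge, 675 regions lay less than 500 bp from an AAV-GFP region, with medians of 719 bp and 2.90-fold. The 551 gene-body regions that were left out although AAV-GFP regions covered less than 10% of their bases were wider, at 2302 bp, and stronger, at 3.86-fold.

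Most of the AAV-Cre-only regions were intronic. No exon was touched by 12271 of them (75.0%), whereas 4101 (25.0%, Wilson 95% interval 24.4 to 25.7) overlapped at least 1 exonic base. Coding sequence was overlapped by 3623 regions (22.1%) and untranslated sequence by 1205 (7.36%), and 497 regions (3.04%) were exonic in every base. Wide regions touch exons more easily, so the summit, which is a single base, was also placed. Of 16268 summits within a gene body, 1937 (11.9%, interval 11.4 to 12.4) fell in an exon, with 1382 (8.50%) in coding and 555 (3.41%) in untranslated sequence.

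Exons made up 6.29% of the 955 Mb of gene body that the rule allowed, with 3.06% coding and 3.22% untranslated sequence. Summits thus fell in exons 1.89 times as often as their share of bases. Coding sequence carried this ratio, since the untranslated share of summits was close to the untranslated share of bases. The shared gene-body regions had 17.3% of their summits in exons (16.1 to 18.6), and the 1472 AAV-GFP-only gene-body regions had 7.41% (6.18 to 8.87). Neighbouring regions of a domain are not independent, so the intervals, which cover counting error only, are too narrow for a test between these classes.

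**Figure D1:**
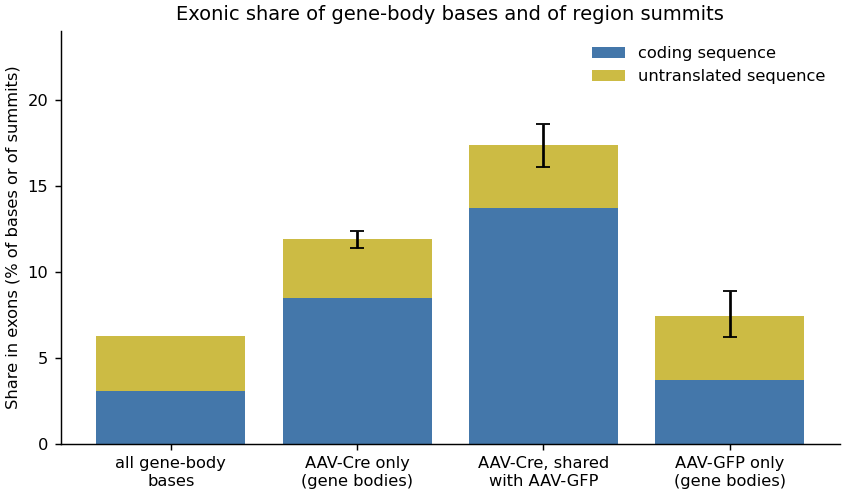
The stacked bars give the percent of allowed gene-body bases (left) or of region summits (the other 3 bars) in coding and untranslated exonic sequence, with Wilson 95% intervals of the exonic total for summits. The AAV-Cre-only bar stands at 11.9%, above the 6.29% of bases and below the 17.3% of shared regions.

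Within the AAV-Cre-only regions, exonic summits were most frequent among the strongest peaks. In 5 equal classes from the weakest to the strongest p-value, 9.67, 10.6, 10.2, 12.4 and 16.7% of summits were exonic. The width moved with it, from a median of 494 bp in the weakest class to 1166 bp in the strongest, while the GC content stayed between 50.6 and 51.1%. Base composition did differ between exonic and intronic sites. Regions with a coding summit had a median GC content of 55.1% and 2.13 CpGs per 100 bases, and those with an intronic summit had 50.5% and 1.29. The allowed gene-body bases had 47.1% GC in exons and 42.5% in introns. The median of each kind of region was above these values. The exonic value includes untranslated sequence, and regions with a coding summit also cover bases outside exons. The GC content of coding bases alone was not computed. The part of GC content in the exonic share was not tested.

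The median AAV-Cre-only gene-body region had 10.2% of its bases masked as repeats, with quartiles of 4.85 and 19.8%. Of all allowed gene-body bases, 27.5% were masked. A median over regions and a share of all bases are different measures, so they are not directly comparable. Low medians were not particular to these regions. They were 13.7% in shared gene-body regions, 13.7% in AAV-Cre-only regions outside gene bodies and 12.1% in AAV-GFP-only gene-body regions. Of the summits in introns, 29.5% (28.8 to 30.3) lay in the first intron, which held 23.3% of the intronic bases, even though the first kb after each start site was left out. For shared regions this share was 28.1%.

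Along the gene, from start to end, the regions were spread almost evenly. When each gene was cut into 10 equal parts, a part held between 9.16 and 11.0% of them, and per Mb of allowed sequence the values ran from 15.3 in part 6 to 19.8 in part 1. The shared regions were placed more at the ends, with 13.5% in part 1 and 12.4% in part 10. Per Mb, the AAV-Cre-only regions were about as dense inside gene bodies, at 17.1, as AAV-Cre-only regions outside them, at 18.7. Chromosomes differed, from 10.1 regions per Mb on chromosome 13 to 26.7 on chromosome 11, and the share that overlapped an exon ran from 16.7% on chromosome 16 to 33.5% on chromosome 3.

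Some of these regions lay near a region of the AAV-GFP list, whether or not that region was shared. The share for positions picked at random was not computed. The median distance to the nearest AAV-GFP region was 8942 bp, and 6279 regions (38.4%) had an AAV-GFP region within 5 kb. That share was 23.0% when both lists were held to a q-value of 0.01. Within 500 bp the share was 4.12%, and within 100 kb it was 91.2%. AAV-Cre-only regions outside gene bodies had similar values at short range, with 37.4% within 5 kb, and were farther away at long range, with 86.4% within 100 kb. When AAV-Cre regions at most 5 kb apart were joined into runs, 8271 (50.5%) of the AAV-Cre-only gene-body regions belonged to a run that also held a shared region. A further 5520 (33.7%) lay in runs made of AAV-Cre-only regions, and 2581 (15.8%) stood alone. Those that stood alone were the narrowest, with a median of 554 bp, against 676 bp in runs with a shared region.

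**Figure D2:**
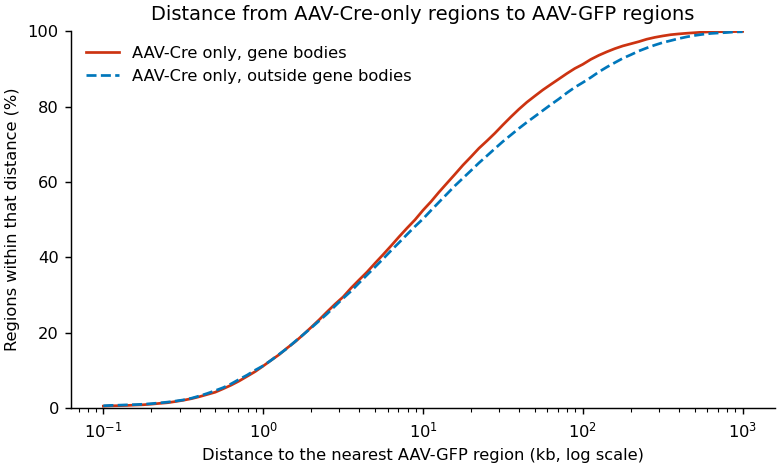
Each curve gives the percent of AAV-Cre-only regions (y axis) that lie within a given distance in kb (x axis, log scale) of the nearest AAV-GFP region, inside gene bodies (solid) and outside them (dashed). The curves lie together up to 5 kb, where they reach 38.4 and 37.4%, and part beyond it.

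The regions fell in 3855 of 20807 autosomal protein-coding genes, which is 18.5% (18.0 to 19.1). A single region was found in 1318 of these genes (34.2%), 1480 (38.4%) held 2 to 4, and 1057 (27.4%) held 5 or more. The 374 genes with 10 or more held 42.3% of all pairs of a region and a gene. The genes with a region were longer, with a median of 39.8 kb against 14.5 kb for those without. The start site, within 1 kb, was itself marked in the AAV-GFP list in 2075 of them (53.8%) and in 1475 (8.70%) of the genes without one. Another 1131 (29.3%) had no AAV-GFP region in the body or at a start site. Of the 374 genes with 10 or more regions, 351 (93.9%) had an AAV-GFP region in the body.

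The share of genes with a region rose with gene length. Among genes shorter than 10 kb, 6.44% held a region, and the share was 18.1% from 10 to 30 kb, 25.7% from 30 to 100 kb, 37.7% from 100 to 300 kb and 55.6% above 300 kb. Per Mb of allowed sequence the order was nearly the opposite, with 24.9 and 26.3 regions in the shortest classes and 10.8 in the longest. The exonic share of summits followed the makeup of the genes. It was 48.3% in genes shorter than 10 kb, where 39.9% of bases were exonic, and 3.58% in genes above 300 kb, where 1.44% were. Summits were thus in exons more often than bases were in each of the 5 length classes, with 24.8 against 16.8%, 11.8 against 8.29% and 6.40 against 3.95% in the classes between.

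**Figure D3:**
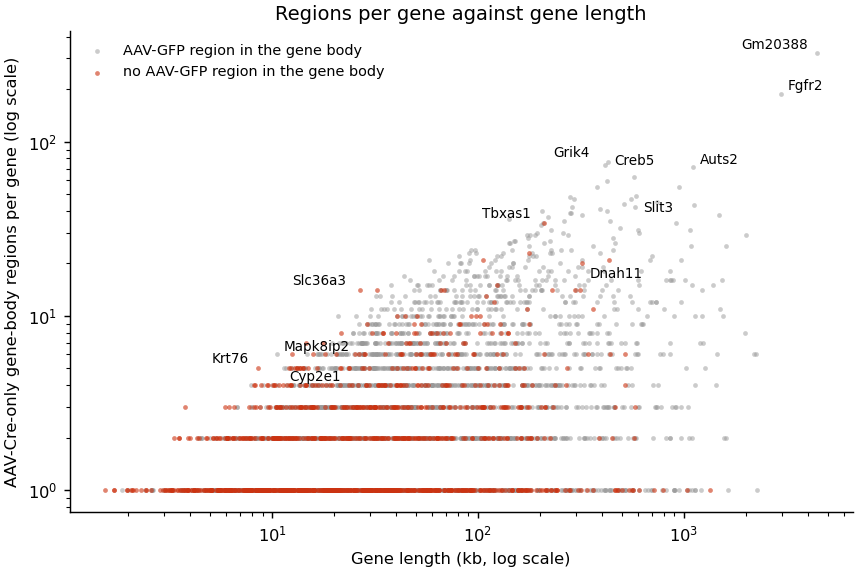
Each point is a gene with at least 1 AAV-Cre-only gene-body region, plotted by its length in kb and its number of regions (both log scales), in red where no AAV-GFP region lay in its body. Counts rose with length up to 322 in the longest annotated model, and most genes with 10 or more regions are grey.

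By count, the list was led by a pair of very long gene models. Gm20388 (chr8:119910841-124345722, a model of 4.43 Mb that spans 71 other protein-coding genes) held 322 regions, and Fgfr2, a receptor for fibroblast growth factors (chr7:130162451-133123350, 2.96 Mb and 29 other genes), held 188. Only 19 of the Fgfr2 regions lay within the 102 kb of its longest coding transcript. Together these models held 510 regions, 368 of them over no other protein-coding gene, so that these counts describe a stretch of chromosome more than a gene.

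Grik4, a subunit of kainate-type glutamate receptors, came next with 76 regions over 426 kb (chr9:42518135-42944493). They covered 66.9 kb or 15.7% of it, and 2 of them touched an exon. The strongest (chr9:42748962-42749677) was 6.48-fold enriched and lay in an intron, 1355 bp from an AAV-GFP region. The gene also held 13 shared regions over 1 kb from start sites, and 26 of the 76 AAV-Cre-only regions had an AAV-GFP region within 5 kb.

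Creb5, a transcription factor that binds cyclic AMP response elements, held 73 regions beside 53 shared ones over 413 kb. Auts2, a nuclear protein known from the development of the brain, held 71 over 1106 kb, with 0 on an exon. Rgs6, which shortens G protein signals, held 63. The neuronal splicing factor Rbfox3 held 59, the RNA-binding protein Msi2 and the transcription activator Camta1 held 55 each, and Slit3, a secreted guidance cue for axons, held 49. In these 8 genes, from Grik4 to Slit3, between 0 and 6 regions touched an exon. All 8 also held shared regions, from 3 in Slit3 to 53 in Creb5. The order of the leading genes changed with the calls. At a q-value of 0.05, Creb5 held 86 regions, Auts2 83 and Grik4 68. With the same number of top peaks from each list, Creb5 held 38, Auts2 33 and Grik4 27. Grik4 stayed ahead of Creb5 and Auts2, with 69 against 55 and 56, when an AAV-GFP region within 1 kb counted as overlap.

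By regions per 100 kb, with at least 5 regions, short genes led and exons were touched more often. Krt76, a keratin, held 5 regions over 8.57 kb (chr15:101884351-101892920) that covered 59.5% of the gene, and 4 of them overlapped an exon. Their folds were 4.17, 2.51, 2.56, 3.47 and 2.64 in the order of the coordinates. No AAV-GFP region lay in the gene, although the nearest was 535 bp from the closest region. Mapk8ip2, a scaffold of the JNK pathway, held 6 regions over 10.6 kb, all on exons. Exons made up 54.3% of its allowed bases, and 3 AAV-GFP regions lay in the gene. Sdsl, a serine dehydratase-like enzyme, held 7 over 14.6 kb, with 4 on exons and no AAV-GFP region in the gene.

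Slc36a3, a relative of Slc36a2 and its neighbour on chromosome 11, held 14 regions over 26.9 kb (chr11:55124815-55151708), which covered 51.3% of it. Every one of the 14 passed a q-value of 0.05, with folds from 2.15 to 4.56. The strongest (chr11:55130765-55131795) had a fold of 4.56. No region of the AAV-GFP list lay in the gene, and the nearest was 22295 bp away. A further AAV-Cre region without an AAV-GFP counterpart lay within 1 kb of a start site and was therefore left out. Its full-length transcript is missing from the basic annotation used for exons here. With the exons of every protein-coding transcript, 7 of the 14 touched an exon, against 1 with the basic set.

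The remaining genes of this ranking were 1700029F12Rik with 6 regions, the sodium-proton exchanger Slc9a5 with 10, the metalloprotease Adam15 with 5, Adprhl1 with 14, the neuronal adaptor Nyap1 with 5 and the kinase Map3k6 with 5. All 5 regions of Adam15, Nyap1 and Map3k6 overlapped an exon, in genes with 28.1, 47.8 and 33.5% of their allowed bases in exons. In Adam15 all 5 also had an AAV-GFP region within 5 kb, the nearest at 42 bp.

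Some genes without any AAV-GFP region in the body held many regions, and the genes named here were singled out after their values were seen. Tbxas1, the thromboxane synthase (chr6:38875404-39084585), held 34 regions that covered 39.8 kb or 19% of its 209 kb, with folds from 2.21 to 4.17. Of these, 4 touched an exon and 31 passed a q-value of 0.05. AAV-GFP regions came no nearer than 201185 bp. Cpvl, a carboxypeptidase on the same chromosome, held 21 regions over 105 kb with the nearest AAV-GFP region at 52864 bp, and Dnah11, a dynein of cilia, held 20 over 321 kb with the nearest at 112792 bp. Abcb1b, a drug efflux pump, held 14 over 68.2 kb at 180686 bp from the nearest. Arhgap26 with 21 regions and Cryl1 with 15 also ranked high among genes of this kind.

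**Figure D4:**
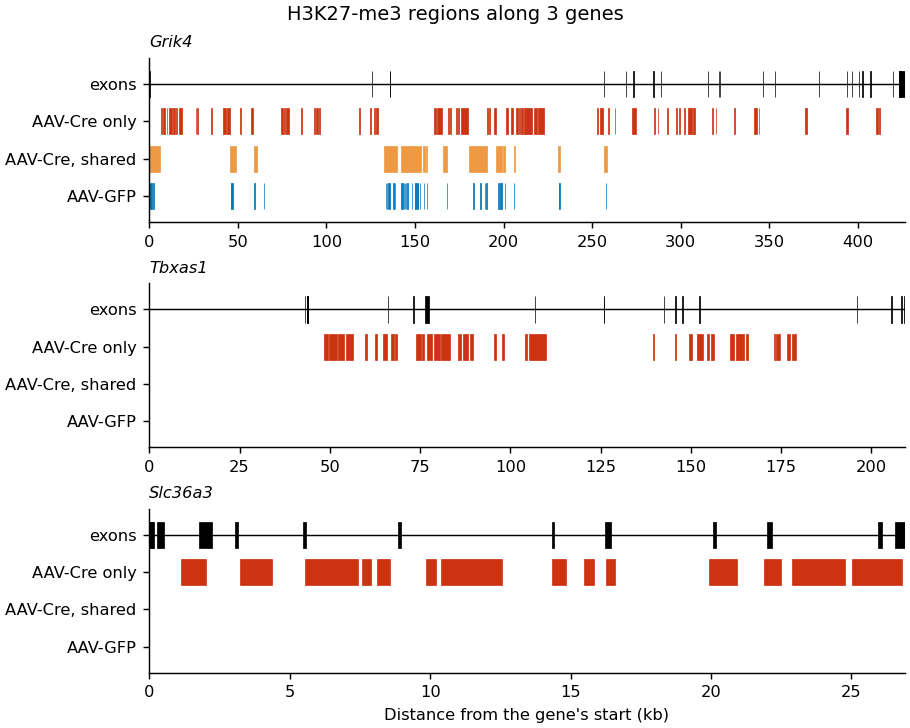
For Grik4, Tbxas1 and Slc36a3 the rows show, along the distance from the gene's start in kb, the exons of every protein-coding transcript, the AAV-Cre-only gene-body regions, the AAV-Cre regions shared with AAV-GFP and the AAV-GFP regions. Grik4 holds all 3 kinds of region, with many AAV-Cre-only ones beside shared ones, while Tbxas1 and Slc36a3 hold 34 and 14 AAV-Cre-only regions and none that is shared or from AAV-GFP (regions within 1 kb of a start site that are not shared are not drawn).

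Gene groups were set against the share over all genes, 18.5%, and against the share expected from genes in the same length classes, given here as like length. The group lists were drawn up with earlier results of these data known, so their shares are descriptions. Genes of developmental control held regions often. Of 166 homeobox, Sox, forkhead and T-box transcription factors, 39 did (23.5%, like length 13.6%), led by Pax5 with 22, Pax2 with 20 and Pax3 with 17. These factors set the identity of B cells, the kidney and the neural crest. In Pax2, 15 of the 20 regions had an AAV-GFP region within 5 kb. Of 87 Wnt, Fgf and TGF-beta ligands and receptors, 42 did (48.3%, like length 19.5%). Fgfr2 supplied 188 of the 336 regions of that group, and the receptors Tgfbr3 and Tgfbr2 held 23 and 21. Of all genes with a region, 1162 (30.1%) had no AAV-GFP region in the body. That held for 5 of the 39 transcription factor genes and 2 of the 42 ligand and receptor genes, so most of them also had calls in the control list.

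Genes of the nervous system formed another set. Of 116 calcium, sodium and potassium channels, 64 (55.2%, like length 28.0%) held a region, with 38 in Kcnh1, 28 in Scn8a and 24 in Cacna1d. Of 43 glutamate and GABA receptors, 20 did (46.5%, interval 32.5 to 61.1), and the like-length share of 37.6% lay inside that interval. Grik4 held 76 of their 142 regions. Axon guidance genes, whose products steer growing axons, did so in 35 of 66 cases (53.0%, like length 31.4%), with Slit3, Ephb2 and Slit1 at 49, 29 and 26 regions. The strongest region of Slit1 was 6.17-fold enriched. No AAV-GFP region lay in the body of 3 of the 64 channel genes, 1 of the 20 receptor genes and 2 of the 35 axon guidance genes.

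Genes for contact between cells and for the matrix around them had the highest shares. Receptor protein tyrosine phosphatases held a region in 14 of 20 cases (70.0%, like length 39.7%), with Ptprm at 21 regions and Ptpre at 20. Adhesion G protein-coupled receptors did in 17 of 25 (68.0%, like length 31.0%), collagens, laminins and Adamts proteases in 49 of 77 (63.6%, like length 31.2%), and cadherins and protocadherins in 65 of 104 (62.5%, like length 27.2%). Density gave another order. Per Mb, the phosphatases held 12.0 regions, the adhesion receptors 22.5, the collagen group 28.6 and the cadherin group 18.5. Over all allowed gene body the value was 17.1, so the phosphatases lay below it. Adamts2 and Adamts12, which process collagen and other matrix proteins, held 40 and 39 regions, and Cdh22 held 22. No AAV-GFP region lay in the body of 2 of the 14 phosphatase genes and 8 of the 17 adhesion receptor genes. The same held for 9 of the 49 genes of the collagen group and 10 of the 65 of the cadherin group. Clustered protocadherin genes share most of their span, so the 279 pairs of the cadherin group came from 147 separate regions. A single region can thus mark several of the 104 genes. The genes behind the 62.5% are therefore not independent, and the interval drawn for this group is too narrow. Its 18.5 regions per Mb is likewise not directly comparable with the 17.1, which counts each region once.

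Dyneins of cilia and myosins, both motor proteins, held a region in 28 of 54 cases (51.9%, like length 33.7%), led by Myo3b with 41, Dnah11 with 20 and Myo18b with 19. In this group 98 of 235 regions (41.7%) overlapped an exon, against 25.0% of the regions overall. For the glutamate and GABA receptors the count was 11 of 142 (7.75%), and Grik4 supplied 76 of the 142 with 2 of the 11. Solute carriers, the membrane transporters of nutrients and ions, held a region in 104 of 339 cases (30.7%, like length 22.1%), with Slc1a2 at 23, Slc22a27 at 17 and Slc36a3 at 14. No AAV-GFP region lay in the body of 12 of the 28 motor protein genes and 31 of the 104 solute carrier genes.

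Genes that are active in liver rarely held one. Of 51 hepatocyte genes, 2 did (3.92%, like length 16.2%). Cyp2e1, an abundant cytochrome P450 of hepatocytes, held 4 regions (the first at chr7:140766663-140767314) with folds of 2.77, 2.43, 2.51 and 2.38 and q-values of 0.003, 0.023, 0.023 and 0.057. The third overlapped 110 exonic bases and the others were intronic. All 4 lay 6470 to 10283 bp from the nearest AAV-GFP region. Apoh, a plasma glycoprotein, held 4 intronic regions with folds between 2.69 and 3.12 and no AAV-GFP region nearer than 150671 bp. Ribosomal protein and proteasome genes, which every cell uses, held a region in 1 of 110 cases (0.909%, like length 9.99%), with 2 intronic regions in Psma6.

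Among 27 genes of the Polycomb and H3K27 demethylase group, Cbx7 held 4 regions and Cbx6 held 2 (7.41%, interval 2.06 to 23.4, like length 19.3%). Both encode readers of the mark, and both also held 1 shared region. The fourth region of Cbx7 was weak, with a fold of 1.88 and a q-value of 0.29.

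Autophagy was the question of the study. Of 70 autosomal autophagy and lysosome control genes, 1 held a region (1.43%, interval 0.253 to 7.66, like length 21.6%). It was Mitf, a relative of Tfeb, with a single intronic region (chr6:97891495-97893145, 3.30-fold, q-value 8.4e-05) 130710 bp from the nearest AAV-GFP region. None of the 12 genes listed for the study (Kdm6b, Tfeb, Ppargc1a, Ulk1, Map1lc3a, Map1lc3b, Atg3, Atg7, Bnip1, Pnpla2, Lipe and Fgf21) held one, and 0 regions of either list overlapped the body of any of them. The paper writes Lc3 and gives primers for Map1lc3a only, so Map1lc3b is an addition to its genes. Others that it names, such as Sirt1 and Ppara, are not among the 12. With 12 genes the interval of a share of 0 reached 24.2%, which includes the like-length share of 18.1%. The paper reported raised H3K27-me3 at nearly all of the autophagy genes it named, by normalized ChIP-seq signal. It also reported this by ChIP assays for selected genes. Its gene counts took peaks by distance from the start site, not only in the body. Signal was not measured here, so the absence of a called region does not show that the mark was unchanged. Kdm6b is the gene that Cre targets, and peak lists of a histone mark do not show whether it was deleted.

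**Figure D5:**
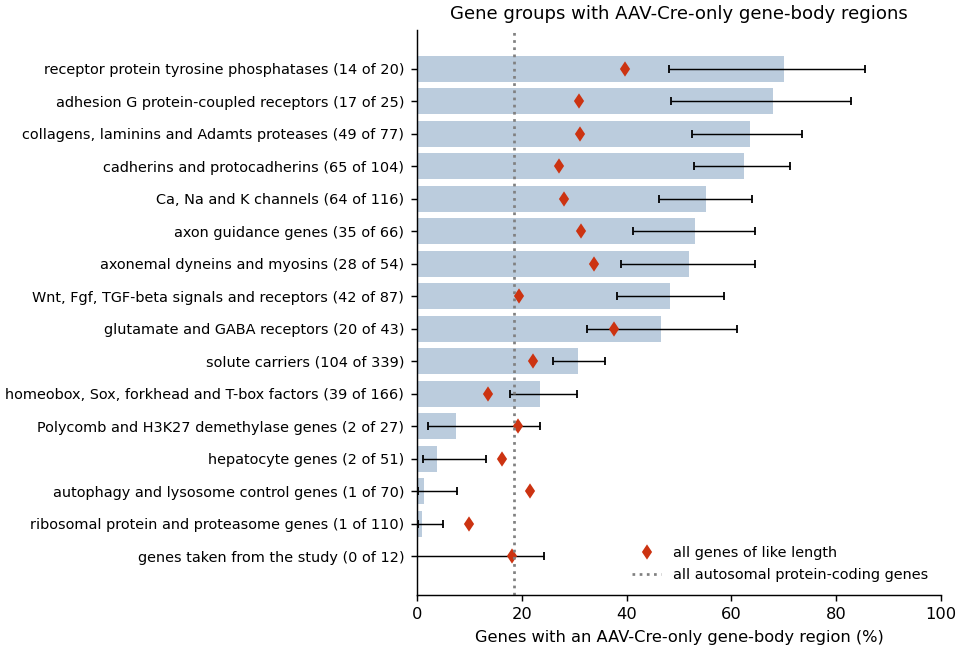
Bars give the percent of genes in each group that hold at least 1 AAV-Cre-only gene-body region, with Wilson 95% intervals, diamonds the share of all genes of like length, and the dotted line the 18.5% of all autosomal protein-coding genes. Groups of adhesion, matrix, channel and signalling genes stand to the right of their diamonds, and hepatocyte, autophagy and ribosomal or proteasome genes to the left.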

How the data were processed

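The deposited peak lists were analysed, 1 for AAV-Cre and 1 for AAV-GFP, each made by the authors from 2 H3K27-me3 libraries with pooled input. The authors mapped reads to mm10 with BWA 0.7.13, filtered them with SAMtools 1.2 and Picard 1.126 (versions from the submitters' processing notes) and called narrow peaks with MACS, which cuts a broad domain into several regions. Per the deposited files, each peak has a position, a summit, a fold enrichment over background, a −log10 p-value, a −log10 q-value and a display score, which was not used. Folds and p-values were used within a list only. The depth of the libraries is not in these lists.

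Gene bodies came from GENCODE M21, and start sites and exons from its basic protein-coding transcripts. Overlap meant at least 1 bp. GC content and repeat masking were read from GRCm38. The like-length share of a gene group is the mean, over its genes, of the share of all genes in the same of 5 length classes that held a region. Intervals are Wilson 95% intervals and cover counting error only. With a single list for each virus, the groups were not tested against each other. Interval functions were tested on simulated data and matched a direct search.

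The members and gene lists were chosen with earlier results of these data known. Genes named were the 10 with most regions and the 10 with most per 100 kb among genes with 5 or more. The genes of the 5 strongest regions with exonic and with intronic summits and of the 3 widest were also named. So were the 12 genes listed for the study and up to 3 per group in 16 groups. Tbxas1, Cpvl, Arhgap26, Cryl1 and Abcb1b were added after seeing the data, as genes without an AAV-GFP region in the body. Alternatives were stricter q-values, equal list sizes, other overlap and distance rules, merging, and, chosen after seeing the data, leaving out gene models over 2.5 Mb and another exon set. Python 3.11.15, numpy 2.4.6, pandas 2.3.3 and matplotlib 3.10.9 were used.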

Additional observations from a re-analysis of the deposited data

How the results depend on the processing

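Each list pools both replicates, so no replicate could be left out. No paired analysis was possible because the result comes from no test and the lists carry no value per replicate. The number of regions, 16372, became 7720 with the same number of top peaks from each list and 8957 after peaks within 1 kb were merged. The overlap with exons, 25.0%, was 26.0% at a q-value of 0.05, 27.7% at 0.01, 28.8% with equal lists, 26.7% when AAV-GFP regions had to cover at least 0.5 of a region, 23.8% at over 5 kb from start sites, 22.5% with the start sites of all transcripts, 28.9% after merging and 25.8% with the exons of all protein-coding transcripts (chosen after seeing the data). The exonic share of summits, 11.9%, was 12.9% at a q-value of 0.01, 13.9% with equal lists, 12.6% with the overlap of 0.5, 11.1% at over 5 kb and 11.0% with all start sites. It was not computed for merged peaks, which have no summit of their own. The share of genes with a region, 18.5%, was 16.8% at a q-value of 0.01, 13.3% with equal lists, 17.3% when an AAV-GFP region within 1 kb counted as overlap, 20.0% with the overlap of 0.5, 14.2% at over 5 kb, 17.5% with all start sites and 15.3% after merging. The cause of these shifts was not tested. The share with an AAV-GFP region within 5 kb ran from 22.4% after merging to 48.8% with the overlap of 0.5, and the median width from 633 to 880 bp. The overlap of 0.5 admits regions that an AAV-GFP region covers in part, and these count as within 5 kb by the rule itself. With equal lists, 3 of the 20 genes ranked highest by count or by density stayed within 1.5 times their count, and 0 lost every region. Asking for at least 0.5 of the region in a gene body, and leaving out gene models over 2.5 Mb (chosen after seeing the data), gave no such shift in any of these 4 values.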
